A study of Mus musculus with 18 samples.

Results

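The 10 genes described here encode the main proteins of the vascular basement membrane, and they were taken by symbol from a table of 35655 genes measured in mouse carotid artery after wire injury. They were the collagen IV genes Col4a1 and Col4a2, the laminin chain genes Lama4, Lama5, Lamb1, Lamb2 and Lamc1, the nidogen genes Nid1 and Nid2, and the perlecan gene Hspg2. All 10 passed the filter on low counts, as did 10312 genes in all. Values are CPM, counts per 1000000 of the library total after scaling by TMM, unless a log2 fold change or a share is named.

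The mice were wild-type (WT) C57/BL6 males on chow, and surgery was done at an age of 11 weeks. A wire drawn through the left carotid strips the endothelium and stretches the wall, and a neointima, a new layer inside the internal elastic lamina, then forms. Tissue was cut out of frozen sections by laser, and the dissected area held the outer elastic lamina and the neointima. MACE, which sequences the 3′ ends of transcripts, was used to profile 18 libraries: day 0, labelled as pre-injury (n = 4), day 7 (n = 4), day 14 (n = 3), day 21 (n = 4) and day 28 (n = 3) after injury. All groups share strain, genotype and diet, and vessels with a thrombus had been left out. The samples are described as pooled, and the number of mice behind each is not stated, so p-values measure only the spread between these samples. The right carotid served as the control side in the study, and whether the day 0 libraries came from such vessels is not stated. Numbers in the sample names of 3 day 0 libraries recur in those of 3 day 21 libraries. Whether they mark the same mice is not stated. The tests reported treat all libraries as independent. Fits of single genes were also run with this number as a block, and the tests of ratios between chains were not.

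Library totals ranged from 440675 to 878310 counts, with medians per day between 549633 and 742503.5, so that 1 count was worth roughly 1 to 2 CPM and genes below about 10 CPM were measured by few counts. Skeletal muscle markers (5 genes) summed to 84.5 CPM in day 7 replicate 2, 344 CPM in day 14 replicate 2 and 259 CPM in day 21 replicate 1, and to at most 17.9 CPM in the other libraries. Their part in the results was not tested, and values without these libraries are given where they change a result.

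A basement membrane is a thin sheet of matrix that lies under the endothelium and wraps each smooth muscle cell of the media. Laminins, trimers of an α, a β and a γ chain, form a first network on the cell surface. Collagen IV, built in vessels mainly from its α1 and α2 chains, forms a second and mechanically stronger one. Nidogens and perlecan, a heparan sulfate proteoglycan, connect the networks. Smooth muscle cells of the intact media are anchored to this sheet through integrins and dystroglycan, and its composition is known to change when they leave the contractile state.

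Col4a1 (chr8:11248423-11362826, minus strand, GRCm39) and Col4a2 (chr8:11362471-11499287, plus strand) lie head to head and overlap at their starts. Their RefSeq transcripts share 22 bases at chr8:11312805-11312826 of build GRCm38.p6, given on the plus strand, which is the start of Col4a2 and, on the other strand, that of Col4a1. They are shown because the 2 genes followed each other most closely among all pairs of members.
Col4a1 and Col4a2 shared start: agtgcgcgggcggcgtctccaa

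Lamb1 (chr12:31315030-31379658, plus strand, GRCm39) and Lamb2 (chr9:108356935-108367729, plus strand) encode the alternative β chains of vascular laminins and moved in opposite directions after injury. The 250 bases before the RefSeq start of each gene (GRCm38.p6, plus strand, 5′ to 3′) are given for comparison. They lie at chr12:31265043-31265292 for Lamb1 and at chr9:108479612-108479861 for Lamb2. Capitals mark GGGCGG or CCAAT on either strand, so CCGCCC is the first of these read from the other strand.
Lamb1: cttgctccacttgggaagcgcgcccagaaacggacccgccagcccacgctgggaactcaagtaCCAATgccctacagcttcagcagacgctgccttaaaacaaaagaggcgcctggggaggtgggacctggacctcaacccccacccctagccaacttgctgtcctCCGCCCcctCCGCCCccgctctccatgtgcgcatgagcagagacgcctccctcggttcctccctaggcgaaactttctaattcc
Lamb2: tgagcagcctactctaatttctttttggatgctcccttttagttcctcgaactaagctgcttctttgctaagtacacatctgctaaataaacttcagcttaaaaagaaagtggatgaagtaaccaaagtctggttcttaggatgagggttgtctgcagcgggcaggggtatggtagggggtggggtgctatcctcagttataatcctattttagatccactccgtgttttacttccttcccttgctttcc

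The Lamb1 window had a GC content of 62.0%, with GGGCGG at positions -84 and -75 and CCAAT at position -187, counted from the start. The Lamb2 window had a GC content of 43.6% and no match to either motif. Over 32851 RefSeq windows of the same length, 32.7% held GGGCGG, 33.8% held CCAAT, and the median GC content was 52.4%. Neither window held TATAAA, found in 12.4% of all windows, or a CArG box, found in 1.47%. The AP-1 motif TGANTCA, found in 6.75%, was in neither window. These matches describe the letters in the windows. Of the 10 members, 7 had an entry, and Lama4, Lamc1 and Nid2 had none.

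On days 7 and 14, both β chains had larger log2 fold changes in size than the other 3 laminin genes. On days 21 and 28 this held for Lamb1 but not for Lamb2. Lamb1, whose β chain is the usual one of endothelial laminins, was measured by few counts on day 0, at 16.4, 4.78, 0 and 5.25 CPM in the 4 libraries. On day 7 it stood at 125, 151, 122 and 136 CPM, on day 14 at 51.2, 132 and 62.6 CPM, and on day 21 at 73.3, 74.7, 65.8 and 67.5 CPM. Every library of these 3 days lay above every day 0 library. On day 28 the values were 15.8, 74.4 and 30.4 CPM, and 1 of the 3 libraries lay within the day 0 range.

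Against day 0, Lamb1 rose by a log2 fold change of 4.31 ± 0.55 (SE) on day 7, or 19.9-fold (adjusted p = 3.78e-06). The later log2 fold changes were 3.61 ± 0.57 for day 14, 3.39 ± 0.55 for day 21 and 2.58 ± 0.59 for day 28, with adjusted p-values of 0.000225, 0.000311 and 0.031. Adjusted p-values come from edgeR's quasi-likelihood test and were adjusted by Benjamini-Hochberg over the 10312 genes, with 0.05 as the threshold. Because day 0 held only 0 to 11 Lamb1 counts per library, the size of the change rests on few counts. Without day 0 replicate 1, the log2 fold changes were 5.18, 4.48, 4.26 and 3.45 on the 4 days.

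The calls for days 7, 14 and 21 held in every alternative that was run, and that for day 28 did not. It was lost without day 0 replicate 2 (adjusted p = 0.0795), replicate 3 (0.0676) or replicate 4 (0.081), and without day 28 replicate 2, where the log2 fold change was 1.79 (adjusted p = 0.207). With the replicate number as a block, its adjusted p was 0.058. Between day 7 and day 28, Lamb1 fell by 1.73 on the log2 scale (SE 0.51, adjusted p = 0.0224), a call lost without day 7 replicate 2 (adjusted p = 0.0655) and without day 28 replicate 1 or 3 (0.0991 and 0.0904).

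Lamb2, the β chain of mature smooth muscle basement membranes, moved the other way. On day 0 it stood at 1343, 962, 988 and 921 CPM. On day 7 it was at 158, 70.1, 97.7 and 504 CPM, on day 14 at 619, 342 and 428 CPM, on day 21 at 668, 367, 725 and 726 CPM, and on day 28 at 948, 776 and 733 CPM. All libraries of days 7, 14 and 21 lay below every day 0 library, and those of day 28 overlapped them.

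Lamb2 fell by 2.34 on the log2 scale on day 7 (SE 0.41, 5.05-fold lower, adjusted p = 0.000166). Without day 7 replicate 4, the highest of that day, it fell by 3.28. The log2 fold changes against day 0 were -1.19 ± 0.43 for day 14, -0.76 ± 0.39 for day 21 and -0.36 ± 0.42 for day 28, and none was called (adjusted p = 0.112, 0.253 and 0.735). The day 14 and day 21 differences passed the threshold without the filter on low counts (adjusted p = 0.00136 and 0.0475) and in fits of the 2 days alone (0.0101 and 0.0355), and that of day 14 also without day 7 replicate 4 (0.00885). From day 7, Lamb2 rose by 1.58 ± 0.40 to day 21 (adjusted p = 0.014) and by 1.97 ± 0.42 to day 28 (adjusted p = 0.00248). The first of these was lost without day 7 replicate 1 or 3 (adjusted p = 0.0537 and 0.0517).

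**Figure D1:**
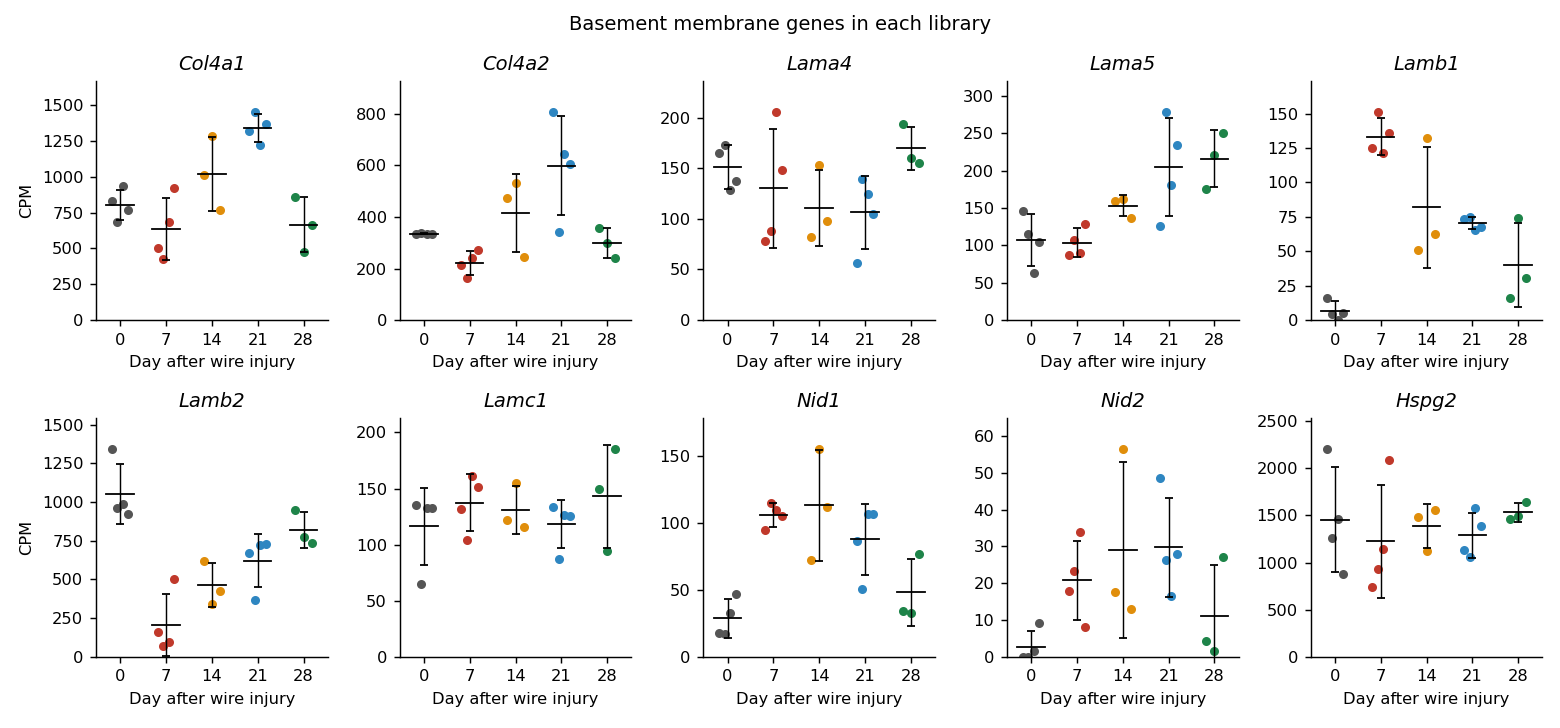
CPM of each of the 10 genes in the 18 libraries (vertical axis, linear from 0, scaled per gene) by day after wire injury (horizontal axis); points are libraries, long bars means and error bars 1 SD. Lamb1 rises from a mean of 6.6 CPM on day 0 to 133 CPM on day 7 while Lamb2 falls from 1054 to 207 CPM, and Hspg2 and Lamc1 overlap on all days.

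Smooth muscle and macrophage markers moved alongside the β chains. The 10 contractile smooth muscle markers summed to between 34167 and 39599 CPM on day 0, 1693 and 7381 CPM on day 7, 7724 and 24565 CPM on day 14, 8811 and 22613 CPM on day 21, and 21317 and 29863 CPM on day 28. All 9 that were tested fell on day 7, against 8.53% of all genes tested. Within days 7, 14 and 28, Lamb2 and this sum put the libraries in the same order. On day 21 they had the same lowest library but not the same highest, and on day 0 the same highest but not the same lowest.

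The 11 macrophage markers summed to 121 to 536 CPM on day 0, 4489 to 6541 CPM on day 7, 1208 to 2645 CPM on day 14, 1705.5 to 3195 CPM on day 21 and 778 to 1122 CPM on day 28, and all 11 rose on days 7, 14 and 21. Over all genes tested, 11.3% rose on day 7, 4.8% on day 14 and 5.92% on day 21. Within day 14, Lamb1 and the macrophage sum put the libraries in the same order. On days 0, 7 and 21 they had the same highest library but not the same lowest. On day 28 they had the same lowest but not the same highest. Of the 12 endothelial markers, 5 rose and 1 fell on day 7, against 11.3% and 8.53% of all genes tested. Their sum ranged from 817 to 1382 CPM on day 0 and from 912 to 2757 CPM on day 7. The part of these cell types in the changes of Lamb1 and Lamb2 was not tested. In tissue libraries, fewer cells of a type and less RNA per cell cannot be told apart, here and in all later results.

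**Figure D2:**
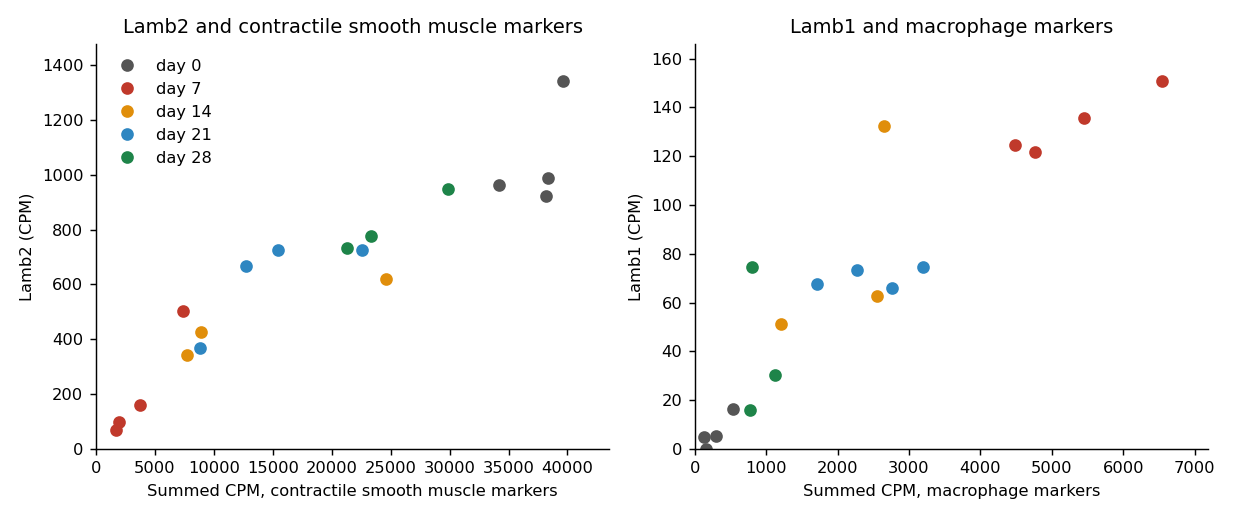
Left, Lamb2 (CPM) against the summed CPM of 10 contractile smooth muscle markers; right, Lamb1 (CPM) against the summed CPM of 11 macrophage markers, 1 point per library coloured by day, linear axes from 0. The day 7 libraries lie at the low end of the left horizontal axis (1693 to 7381 CPM) and the high end of the right one (4489 to 6541 CPM). Their Lamb2 values run from 70.1 to 504 CPM, and the highest overlaps days 14 and 21.

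The balance of the β chains can be read within each library, where scaling between libraries has no part. Lamb1 made up 0.566% ± 0.494 (SD, n = 4) of the Lamb1 and Lamb2 counts on day 0, 47.2% ± 20.0 (n = 4) on day 7, 16.1% ± 10.5 (n = 3) on day 14, 10.9% ± 4.06 (n = 4) on day 21 and 4.79% ± 3.63 (n = 3) on day 28. In the day 0 library without a Lamb1 count, 0 of 663 counts allows a share of up to 0.452%, by 3 counts of the total and for counting error only. The lowest share in an injured library, 1.64% in day 28 replicate 1, was above the highest on day 0, 1.20%. The log2 ratio of Lamb1 to Lamb2 was 5.39 higher in the 14 injured than in the 4 day 0 libraries (two-sided exact permutation test, p = 0.000654, adjusted p = 0.00261 over 4 ratios), which is the smallest p this design can give. Without day 0 replicate 3, the difference was 4.55. Shares are of counts and were compared between days, not as numbers of protein chains.

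Of the α chains, Lama5 was called on day 21 and Lama4 on no day. Lama4, the α4 chain of endothelial and smooth muscle basement membranes (chr10:38841141-38998403, plus strand, GRCm39), stood at 165, 173, 128 and 138 CPM on day 0, at 78.3, 88.1, 205 and 149 CPM on day 7, at 81.6, 154 and 97.9 CPM on day 14, at 56.8, 139, 125 and 105 CPM on day 21, and at 194, 160.4 and 155 CPM on day 28. The groups overlapped on all days. Its log2 fold change against day 0 lay between -0.52 ± 0.31 (day 21, adjusted p = 0.363) and 0.17 ± 0.33 (day 28, adjusted p = 0.862), and the 95% interval on day 21, -1.16 to 0.13, does not exclude a fall by more than 2-fold.

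Lama5, the α5 chain that adds adhesion sites to the mature endothelial basement membrane (chr2:179818166-179867712, minus strand), stood at 146, 116, 62.6 and 105 CPM on day 0 and at 87.3, 108, 89.7 and 129 CPM on day 7. It was at 160.0, 162 and 137 CPM on day 14, at 127, 279, 181 and 235 CPM on day 21, and at 175, 222 and 251 CPM on day 28. The day 28 libraries all lay above the day 0 range, while those of day 21 overlapped it in 1 library. Lama5 rose on day 21 (adjusted p = 0.0362, log2 fold change 0.93 ± 0.28), and its difference on day 28 was 1.01 ± 0.29 (adjusted p = 0.0956, not called).

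The Lama5 call on day 21 depended on single libraries. It passed the threshold in 18 of 26 alternatives. Among the losses were the fits without day 0 replicate 2, 3 or 4 (adjusted p = 0.0642, 0.117 and 0.0764) and without day 7 replicate 2 (0.0509). Others were those without day 21 replicate 2, 3 or 4 (0.155, 0.0534 and 0.107). The day 28 difference passed the threshold in 3 of 26 alternatives. These were DESeq2 (adjusted p = 0.0373), DESeq2 with the deposited factors (0.0316) and the fit without day 28 replicate 1 (0.0427). Against day 7, Lama5 was higher by 0.98 ± 0.28 on day 21 and by 1.06 ± 0.30 on day 28 (adjusted p = 0.0312 and 0.0177). The former was lost without day 7 replicate 1, 2 or 3 (adjusted p = 0.0943, 0.0622 and 0.0855) or day 21 replicate 2 or 4 (0.104 and 0.0826), and the latter without day 28 replicate 2 or 3 (0.0506 and 0.0656).

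Lama4 made up 59.2% ± 5.98 of the Lama4 and Lama5 counts on day 0 (n = 4), 53.8% ± 11.1 on day 7 (n = 4), 41.3% ± 7.42 on day 14 (n = 3), 34.0% ± 4.72 on day 21 (n = 4) and 44.2% ± 7.43 on day 28 (n = 3). The log2 ratio of Lama4 to Lama5 was 0.93 lower in injured than in day 0 libraries, at -0.39 against 0.54 (two-sided exact permutation test, p = 0.0196, adjusted p = 0.0261 over 4 ratios). The test no longer passed without day 0 replicate 2 (difference -0.92, exact permutation test, adjusted p = 0.0588) or replicate 3 (-0.77, adjusted p = 0.106). In the authors' normalised table, values of Lama4 carry a further factor of 0.434 to 1.06 times that of their library, and the counts used here do not. With those normalised values the difference in log2 ratio was -1.28 (two-sided exact permutation test, adjusted p = 0.0157).

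Lamc1, the γ1 chain common to most laminins (chr1:153094597-153208774, minus strand), showed no change that passed the test. It stood at 135, 64.6, 133 and 133 CPM on day 0, 132, 104, 161 and 152 CPM on day 7, 122, 155 and 116 CPM on day 14, 134, 86.8, 127 and 126 CPM on day 21, and 149, 94.3 and 185 CPM on day 28. All groups overlapped. Log2 fold changes against day 0 lay between 0.03 ± 0.28 (day 21, 95% interval -0.55 to 0.60) and 0.30 ± 0.30 (day 28, -0.31 to 0.91), and changes within these intervals were not detectable with this number of libraries.

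**Figure D3:**
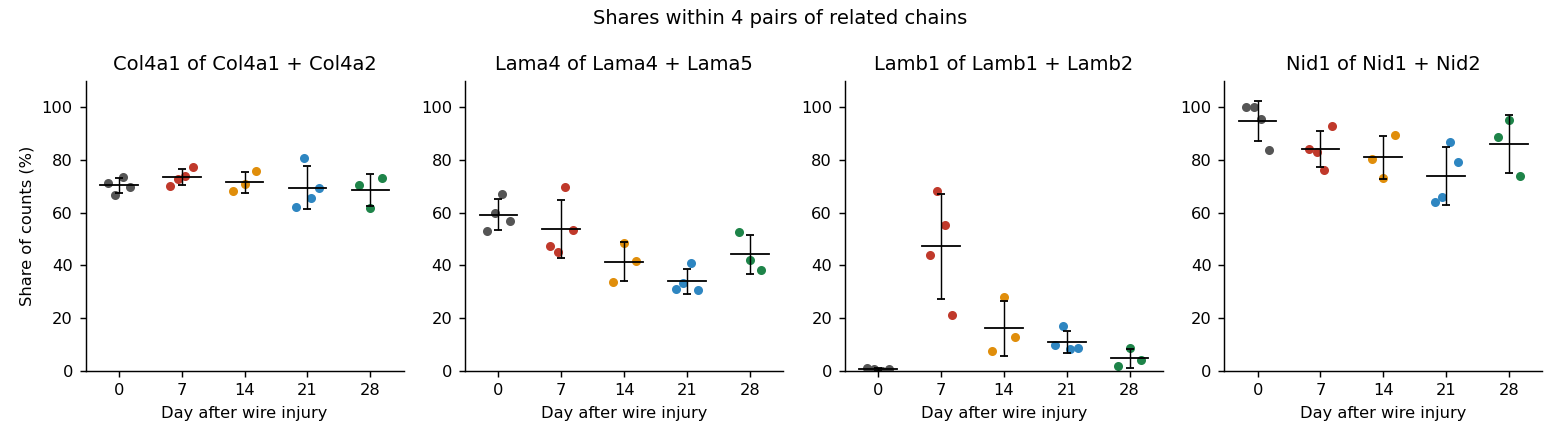
Share of the first gene in the summed counts of 4 pairs of related chains (vertical axis, percent, from 0) by day after injury; points are libraries, long bars means and error bars 1 SD. The Lamb1 share goes from at most 1.20% on day 0 to between 21.2% and 68.3% on day 7, the Lama4 share falls to 34.0% by day 21, and the Col4a1 share stays between 61.6% and 80.9%.

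Both collagen IV genes had their lowest mean on day 7 and their highest on day 21, and rose between these days. Col4a1 stood at 828, 686, 938 and 765 CPM on day 0, at 506, 429, 682 and 920.2 CPM on day 7, at 1009, 1287 and 766 CPM on day 14, at 1320.0, 1451, 1222 and 1370.5 CPM on day 21, and at 859, 478 and 663 CPM on day 28. Day 21 was the only day on which all libraries lay above the day 0 range. Its log2 fold change on day 21 was 0.74 ± 0.24 (1.67-fold, adjusted p = 0.052, not called), and it passed the threshold in 9 of 26 alternatives. These were a fit of the 2 days alone (adjusted p = 0.00932), DESeq2 (0.021), DESeq2 with the deposited factors (0.028), raw library totals (0.0353), no filter on low counts (0.0392) and RLE factors (0.045), and the fits without day 7 replicate 4 (0.0256) or day 28 replicate 1 or 2 (0.0482 and 0.0421).

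Col4a2 stood at 335, 339.5, 335 and 333 CPM on day 0, an SD of 2.63 CPM. These libraries held 225 to 284 Col4a2 counts, for which counting error alone is larger than this spread. A position above or below this narrow range therefore says little by itself. On day 7 it was at 215, 162, 241 and 271 CPM, all below day 0, and on day 21 at 807, 343, 645 and 605 CPM, all above day 0, although replicate 2 exceeded the highest day 0 library by little. Days 14 (473, 531 and 244 CPM) and 28 (358, 298 and 241 CPM) overlapped day 0. It rose on day 21 (0.84 ± 0.26, 1.79-fold, adjusted p = 0.0454), while the difference on day 7 was -0.59 ± 0.27 (adjusted p = 0.128).

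The Col4a2 call on day 21 lay close to the threshold. With the replicate number as a block its adjusted p was 0.065, and with the number shared by 3 day 0 and 3 day 21 sample names as a block it was 0.0807. It was lost without any 1 of the 4 day 0 libraries (adjusted p between 0.0774 and 0.0922), without day 7 replicate 1, 2 or 3 (0.0638, 0.0517 and 0.0544), without day 14 replicate 1 (0.0508), and without day 21 replicate 1, 3 or 4 (0.175, 0.101 and 0.0943).

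Between day 7 and day 21, Col4a1 rose by 1.08 ± 0.24 (2.11-fold, adjusted p = 0.00543) and Col4a2 by 1.43 ± 0.27 (2.70-fold, adjusted p = 0.00134). Both calls held with each library left out, and both were lost with the number in the sample names as a block (adjusted p = 0.0623 and 0.131). By day 28 both were lower than on day 21 by 1.01 on the log2 scale, with adjusted p = 0.0678 for Col4a1 and 0.0969 for Col4a2, which did not pass. In DESeq2 these were 0.012 and 0.0318, and without day 7 replicate 4 or day 28 replicate 1 the Col4a1 value passed in edgeR (0.0349 and 0.0292).

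The split of counts between the 2 collagen IV genes did not differ beyond its spread. Col4a1 made up 70.3% ± 2.83 (SD, n = 4) of their summed counts on day 0, 73.5% ± 2.96 (n = 4) on day 7, 71.6% ± 3.94 (n = 3) on day 14, 69.4% ± 8.18 (n = 4) on day 21 and 68.5% ± 6.12 (n = 3) on day 28. The log2 ratio differed by 0.05 between injured and day 0 libraries (two-sided exact permutation test, p = 0.822, adjusted p = 0.822 over 4 ratios). The widest spread was on day 21, where replicate 2 held 80.9% and replicate 1 held 62.1%.

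The nidogens rose from low levels. Nid1, which links the laminin and collagen IV networks (chr13:13612071-13686860, plus strand), stood at 17.9, 16.7, 32.8 and 47.2 CPM on day 0, at 94.4, 115, 109.6 and 105 CPM on day 7, at 72.0, 155 and 112 CPM on day 14, at 86.3, 50.5, 107 and 107 CPM on day 21, and at 34.5, 33.1 and 76.7 CPM on day 28. All libraries of days 7, 14 and 21 exceeded the highest of day 0, and day 28 overlapped it. Nid1 rose by 1.88 ± 0.38 on day 7 (3.68-fold), 1.97 ± 0.39 on day 14 and 1.61 ± 0.38 on day 21, with adjusted p-values of 0.000722, 0.00257 and 0.00771. Its difference on day 28 was 0.74 ± 0.41 (adjusted p = 0.409). These 3 calls held in every alternative that was run.

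Nid2, a second nidogen with overlapping binding partners (chr14:19801298-19861855, plus strand), was at 0, 0, 1.49 and 9.19 CPM on day 0, which is 0, 0, 1 and 7 counts. On day 7 it stood at 17.8, 23.4, 33.9 and 8.07 CPM, on day 14 at 17.6, 56.5 and 13.0 CPM, on day 21 at 48.5, 26.2, 16.4 and 27.9 CPM, and on day 28 at 4.31, 1.65 and 27.2 CPM. Days 14 and 21 lay above day 0 in all libraries, and days 7 and 28 overlapped it. Its log2 fold changes were 2.85 ± 0.94 on day 7 (adjusted p = 0.0339), 3.32 ± 0.97 on day 14 (0.0397), 3.38 ± 0.94 on day 21 (0.0236) and 1.95 ± 1.01 on day 28 (0.37, not called).

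With at most 7 counts per library on day 0, the Nid2 calls changed with single libraries. The day 7 call was lost without day 0 replicate 1, 2 or 3 (adjusted p = 0.0799, 0.0916 and 0.0801) and without day 7 replicate 1, 2 or 3 (0.0569, 0.0734 and 0.109). The day 21 call was lost without day 0 replicate 1, 2 or 3 (0.0545, 0.0682 and 0.0651) and without day 21 replicate 1 (0.0826).

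The Nid2 call on day 14 was lost in 9 of 18 such fits, with a highest adjusted p of 0.36 without day 14 replicate 2, where the log2 fold change was 2.41. The others were those without day 0 replicate 1, 2 or 3 (adjusted p = 0.0893, 0.109 and 0.0991), day 7 replicate 1 or 2 (0.0536 and 0.0533) and day 21 replicate 1, 2 or 4 (0.0525, 0.0506 and 0.0554). Without day 0 replicate 4, the log2 fold changes on days 7, 14 and 21 were 4.96, 5.44 and 5.51. With the replicate number as a block, the calls on days 7 and 14 were lost (adjusted p = 0.0526 and 0.0819).

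Nid1 made up 94.8% ± 7.69 (SD, n = 4) of the nidogen counts on day 0, 84.1% ± 6.76 (n = 4) on day 7, 81.1% ± 8.15 (n = 3) on day 14, 74.0% ± 10.9 (n = 4) on day 21 and 86.0% ± 11.0 (n = 3) on day 28. The log2 ratio of Nid1 to Nid2 was 1.73 lower after injury (two-sided exact permutation test, p = 0.0105, adjusted p = 0.0209 over 4 ratios). It rests on 12 to 43 nidogen counts per day 0 library, and in 2 of the 4 the pseudocount set the ratio because Nid2 had no count. With a pseudocount of 1 the difference was -1.22 (exact permutation test, adjusted p = 0.027), and with none, which left 2 day 0 libraries, it was -1.13 and did not pass (adjusted p = 0.244). The test did not pass without day 0 replicate 1 (difference -1.49, exact permutation test, adjusted p = 0.0588), replicate 2 (-1.42, 0.0588) or replicate 3 (-1.74, 0.0529).

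Hspg2, the core protein of perlecan (chr4:137196079-137298231, plus strand), did not pass the test on any day. It stood at 2205, 1259, 1464 and 882 CPM on day 0, at 739, 933, 1142 and 2084 CPM on day 7, at 1484, 1122 and 1554 CPM on day 14, at 1133, 1053, 1582 and 1384 CPM on day 21, and at 1458, 1493 and 1641 CPM on day 28. All groups overlapped day 0, whose own libraries differed by more than 2-fold. Log2 fold changes lay between -0.25 ± 0.28 on day 7 (95% interval -0.82 to 0.33) and 0.08 ± 0.30 on day 28 (-0.54 to 0.69).

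**Figure D4:**
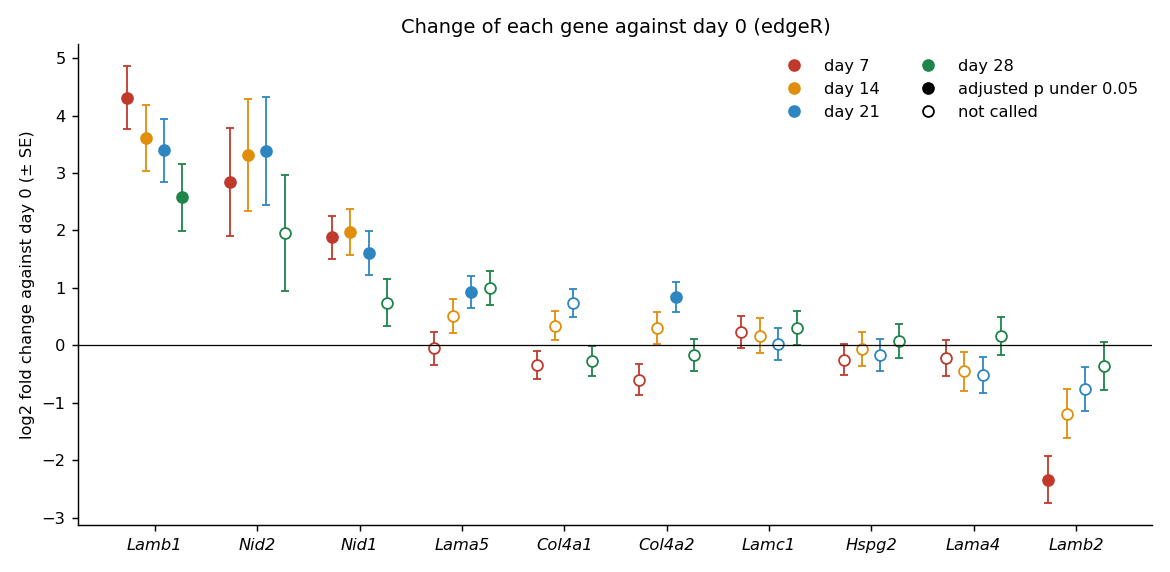
log2 fold change against day 0 (vertical axis, ± SE) of each of the 10 genes (horizontal axis) on days 7, 14, 21 and 28, from 1 edgeR fit over 18 libraries; filled points have an adjusted p under 0.05 and open points do not. Lamb1, Nid2 and Nid1 lie above 0 on all days, Lamb2 reaches -2.34 on day 7, and Lamc1, Hspg2 and Lama4 stay between -0.52 and 0.30.

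Counted together, 3 of the 10 members rose on day 7 (Lamb1, Nid1 and Nid2) and 1 fell (Lamb2), against 11.3% of all genes tested that rose and 8.53% that fell, 19.8% in all. On day 14, the same 3 rose and none fell, against backgrounds of 4.8%, 1.42% and 6.22%. On day 21, 5 rose (Lamb1, Nid1, Nid2, Lama5 and Col4a2) and none fell, against 5.92%, 2.93% and 8.84%. On day 28, Lamb1 alone rose and none fell, against 0.97%, 0.369% and 1.34%.

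The median log2 fold change of the 10 members was -0.14, 0.33, 0.79 and 0.23 on days 7, 14, 21 and 28, beside 0.07, 0.05, 0.07 and -0.01 over all genes tested. These counts changed with single libraries. Without the libraries that held skeletal muscle markers, 3 members were called on day 7 (without replicate 2), 2 on day 14 (without replicate 2) and 3 on day 21 (without replicate 1). Calls over all genes fell as well in these fits, from 2041 of 10312 to 1556 of 10244 genes on day 7, from 641 to 233 of 10898 on day 14 and from 912 to 613 of 10153 on day 21. With each of the 18 libraries left out in turn, between 2 and 6 members were called on day 21 and between 0 and 2 on day 28. The 138 genes called on day 28 over all genes also became 63 without day 0 replicate 3 or day 28 replicate 2, and 480 without day 28 replicate 1. Over any of the 5 days, 6 of the 10 differed by the F test (Lamb1, Lamb2, Nid1, Col4a2, Col4a1 and Lama5, adjusted p between 6.32e-05 and 0.0144), against 18% of all genes. The 4 that did not were Nid2 (adjusted p = 0.0692, and 0.0157 without day 0 replicate 4 or 0.0159 without day 28 replicate 3), Lama4 (0.459), Lamc1 (0.9) and Hspg2 (0.904).

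Between injured days, 4 members were higher on day 21 than on day 7 (Col4a1, Col4a2, Lama5 and Lamb2) and none lower, against 4.03% of all genes higher, 3.23% lower and 7.26% in all. From day 7 to day 28, 2 rose (Lama5 and Lamb2) and 1 fell (Lamb1), against 6.4%, 8.05% and 14.4%. No member was called between days 7 and 14 (1.66% of all genes), though without day 7 replicate 4 Col4a1 and Lamb2 were higher on day 14 (adjusted p = 0.035 and 0.000334). None was called between days 14 and 28 (0.698%) or 21 and 28 (0.679%). Between days 14 and 21, edgeR called none of the 10312 genes (0%), with 421 at an unadjusted p under 0.05, and DESeq2 called 43.

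When the 5 days are ordered by mean CPM, the order differed between members. Col4a1 and Col4a2 ran day 21, 14, 0, 28 and 7 from high to low, Lamb2 ran day 0, 28, 21, 14 and 7, and Lamb1 ran day 7, 14, 21, 28 and 0. Of the 40 steps between neighbouring days in these orders, only that of Lamb1 between day 28 and day 0 passed the threshold (adjusted p = 0.031).

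Likeness over the 18 libraries was measured as the root mean square difference of centred log2 CPM, where 0 means the same profile. Col4a1 and Col4a2 were the closest pair of members at 0.34. Of all 10312 genes, the nearest to Col4a1 were Fkbp9 (0.34), Col4a2 (0.34) and Selenom (0.34), and Col4a2 was nearest to Col4a1 (0.34), Fkbp9 (0.35) and Mxd4 (0.40). Lamb2 was nearest to Aoc3 (0.32), Tns1 (0.33) and Irag1 (0.38), and Lamb1 to Laptm5 (0.51), C1qc (0.51) and Cybb (0.53). C1qc encodes a chain of complement C1q and belongs to the macrophage markers used here.

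For Nid1 the nearest were Lasp1 (0.42), Fn1 (0.45), the fibronectin gene, and Myh9 (0.46), and for Nid2 Adgrf5 (0.65), Pnpla7 (0.65) and Myo7a (0.67). Lama4 lay nearest to Crip1 (0.30), Vasp (0.33) and Snx17 (0.33), and Lama5 to Dcaf11 (0.34), Fmnl3 (0.36) and Ndrg1 (0.37). Lamc1 lay nearest to Ywhab (0.29), Ssbp3 (0.29) and Gorasp2 (0.31), and Hspg2 to Dync1h1 (0.25), Man2a2 (0.26) and Xab2 (0.27). Genes that change little lie close to many others on this measure, so these distances are a description.

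Of other chains of the same families, 1 collagen IV gene and 1 laminin gene fell on day 7, against 8.53% of all genes tested. Among Col4a3 to Col4a6, Col4a6 fell by 2.44 (log2) on day 7, with an adjusted p of 0.000654, and no other was called on any day. The median log2 fold changes of the 4 were -1.72, -0.22, 0.84 and 0.75 for days 7, 14, 21 and 28. On day 0, Col4a5 and Col4a6 had means of 186 and 159 CPM, beside 336 CPM for Col4a2. Col4a5, which differed over any day (adjusted p = 0.021), had log2 fold changes of -1.21, 0.73, 0.94 and 0.67.

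Of 6 further laminin chains, 2 had enough counts to be tested. Lamc3 fell on day 7 (-3.70, adjusted p = 0.00035), and the other, Lama2 (the α2 chain of muscle laminin), was not called (-0.84 on day 7, adjusted p = 0.383). Their median was -2.27 on day 7.

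Of 20 other basement membrane components, 13 were tested, and 8 of them fell and 1 rose on day 7 (median log2 fold change -1.21). On day 21, 2 rose and 3 fell (median -0.19), on day 14, 2 rose, and on day 28 none was called. The shares of all genes tested that fell and rose were 8.53% and 11.3% on day 7 and 2.93% and 5.92% on day 21. On day 14, 4.8% rose, and on day 28, 1.34% were called. Fbln2, a fibulin that binds nidogen and perlecan, rose on day 7 by 3.38 (adjusted p = 6.76e-09), on day 14 by 2.35 and on day 21 by 1.51. Sparc, a collagen-binding chaperone of the matrix, was at 0.16 on day 7 (adjusted p = 0.738) and rose by 1.39 on day 14 and by 1.92 on day 21, with adjusted p-values of 0.00179 and 2.79e-05. On day 7, Ntn1 (log2 fold change -2.37), Npnt (-1.97), Fbln1 (-2.02) and Smoc2 (-1.78) fell, with adjusted p between 0.000113 and 0.00304.

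Of 14 genes for collagen IV assembly and processing, 2 rose on day 7, none on day 14, 2 on day 21 and none on day 28. Over all genes tested, 11.3% rose on day 7 and 5.92% on day 21, so the day 7 count lay near that share. The median log2 fold changes were 0.41, 0.45, 0.32 and -0.14. Pxdn, the peroxidase that forms the sulfilimine cross-links of collagen IV, rose on day 7 by 1.74 (adjusted p = 0.00634). Loxl2, a lysyl oxidase that cross-links collagen IV, rose on day 7 by 1.86 (adjusted p = 0.00194) and on day 21 by 1.33 (adjusted p = 0.0441). Colgalt1, named here after its values were seen, was the other gene that rose on day 21 (1.04, adjusted p = 0.0123).

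Among receptors for the basement membrane, more genes fell than rose on each day. Of 14, 6 fell and 3 rose on day 7 (median log2 fold change -0.84), and 4 fell and 1 rose on day 14 (-0.54). On day 21, 4 fell (-0.48), and on day 28, 1 fell (-0.32). Among all genes tested, 8.53% fell and 11.3% rose on day 7, and 1.42% fell and 4.8% rose on day 14. On days 21 and 28, 2.93% and 0.369% fell. Itga1, the α1 integrin that binds collagen IV, fell on all 4 days, with log2 fold changes of -1.82, -1.30, -1.40 and -1.35 (adjusted p between 3.07e-05 and 0.022). Bcam, a receptor for the laminin α5 chain, fell by 2.78 on day 7, fell by 1.87 on day 14 and fell by 1.53 on day 21. Itga7, a laminin receptor of muscle, fell by 3.04 on day 7 and fell by 1.24 on day 14.

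Integrin genes of the α6β4 laminin receptor went the other way on day 7, when Itga6 rose by 2.09 (adjusted p = 0.00087) and Itgb4 by 1.92 (adjusted p = 0.0247). Itga3, another laminin receptor gene, fell on days 14 and 21 (log2 fold changes -1.50 and -1.12). Itga2, named after its values were seen, had 0 to 1 counts per library on day 0, 0 to 17 on day 7 and 3 to 15 on day 14, and was called higher on days 7 and 14 (adjusted p = 0.00649 and 0.0448).

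Of 10 proteases, heparanase and inhibitors, 8 were tested. On day 7, 3 rose and 1 fell (median log2 fold change 0.79), and 3 rose on day 14 (1.46) and on day 21 (0.51). None was called on day 28 (0.12, or 0.41 with a gene at the count limit set to its bound). Across all genes tested, 11.3% rose and 8.53% fell on day 7, 4.8% rose on day 14 and 5.92% rose on day 21. Mmp2, a gelatinase that degrades collagen IV, rose by 1.20, 2.28 and 2.20 on days 7, 14 and 21, and Mmp14, which activates it, by 2.16, 1.77 and 1.82. Timp1, a metalloproteinase inhibitor, rose by 4.66, 3.60 and 2.36, and Timp3, an inhibitor bound to the matrix, fell by 1.69 on day 7 (adjusted p = 0.00024). Mmp9 differed over any day (adjusted p = 0.02) and on no single day against day 0, with 3.56 on day 7 (adjusted p = 0.0592).

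**Figure D5:**
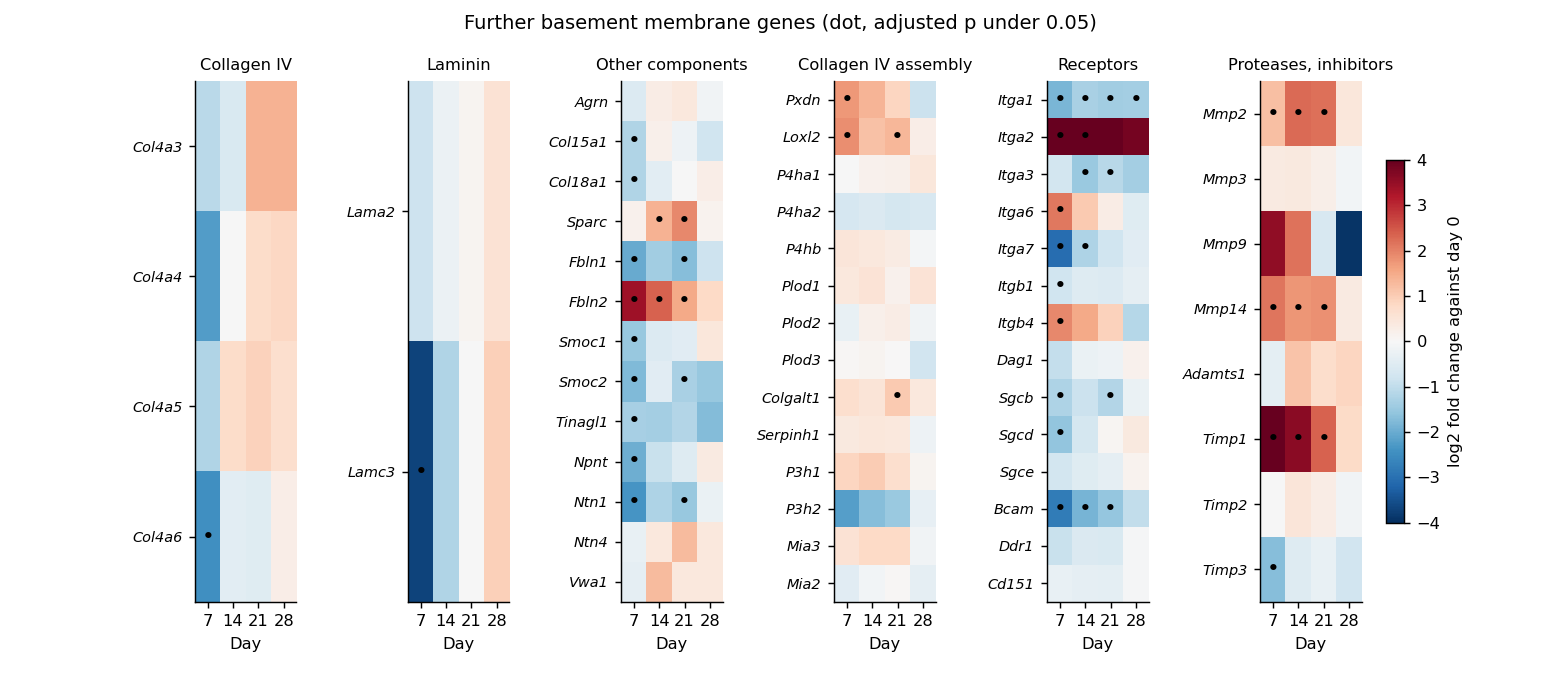
log2 fold change against day 0 (colour, limited to ±4) on days 7, 14, 21 and 28 for the tested genes of 6 lists, 1 row per gene; dots mark an adjusted p under 0.05. Most receptor and component rows are blue on day 7, with Fbln2, Timp1, Mmp14, Itga6 and Pxdn red. Itga2 had at most 1 count per library on day 0, so the size of its colour depends on the fit.

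Fibrillar collagens, the scaffold of the interstitial matrix, rose on the same days. All 6 rose on days 7 and 14, 5 rose on day 21 and none on day 28, with median log2 fold changes of 1.02, 1.74, 1.93 and 0.25. Of all genes tested, 11.3%, 4.8%, 5.92% and 0.97% rose on these days. The ratio of Col1a1 to Col4a1 counts, examined after the values were seen, had geometric means of 3.06 for day 0, 11.3 for day 7, 11.4 for day 14, 13.0 for day 21 and 4.55 for day 28. Its mean log2 value was 1.67 higher in the 14 injured than in the 4 day 0 libraries, given as a description with no test.

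Fibroblast, pericyte and other markers also differed between days. Of 9 fibroblast markers, 2 rose and 4 fell on day 7, against 11.3% and 8.53% of all genes tested. On day 21, 3 of them rose and 2 fell, against 5.92% and 2.93%. Their sum ranged from 2700.5 to 3959 CPM on day 0, from 1383 to 2604 CPM on day 7, all below day 0, and from 3516 to 5693 CPM on day 21. Of 5 pericyte markers tested, 3 fell on day 7 and 2 rose on day 21, against 8.53% and 5.92% of all genes tested. The sum of the 6 in the list ranged from 678 to 948 CPM on day 0, from 153 to 567 CPM on day 7, all below day 0, and from 607 to 1790.1 CPM on day 21. The fibroblast and pericyte sums had their lowest mean on day 7, as Col4a1 and Col4a2 did. Both sums had their highest mean on day 14, at 4157 and 1423 CPM, beside 4134 and 1244 CPM on day 21. Col4a1 and Col4a2 had theirs on day 21. The 5 adipocyte markers summed to 259 to 381 CPM on day 0 and 668 to 1043 CPM on day 21. Of the 2 tested, Lpl rose on all 4 days, when 11.3%, 4.8%, 5.92% and 0.97% of all genes tested rose. Fabp4, the other, fell on day 7, against 8.53% of all genes tested, and was not called on the other days. Adipoq, Plin1 and Cidec had at most 5 counts in any library. The 6 Schwann cell markers summed to 4.47 to 33.5 CPM on day 0 and 42.8 to 254 CPM on day 21. On day 21, 2 of 4 tested rose, against 5.92% of all genes tested, and Cdh19 had no count. Their part in the results was not tested.

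Overlapping genes limit 4 of the members. The last exons of Lama5, Lamb1, Nid2 and Hspg2 overlap exons of Adrm1, Dld, Rtraf and Ldlrad2 on the opposite strand in GENCODE vM39, and the use of strand in the counting is not given in the sources used here, so reads of each pair cannot be told apart. Adrm1 had 0 to 19 counts and Ldlrad2 0 to 2 counts per library, and neither was tested. Dld had 15 to 83 counts and was not called on any day against day 0 (lowest adjusted p = 0.687), while Rtraf had 34 to 196 counts and fell by 0.98 on day 21 (adjusted p = 0.023).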

How the data were processed

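Libraries of 3′ transcript ends were made with a MACE kit with unique molecular identifiers, and duplicates were removed by these. The authors quantified reads with Salmon 1.9.0 on the mm39 transcriptome and deposited, per gene, estimated counts (expected counts that need not be whole), and a second table of counts normalised by DESeq2 1.36.0, a signal without a fixed unit. The annotation release and use of strand are not given in the sources used here. The deposited normalised signal served only for alternatives, through its factors in a fit and in place of the counts in the ratios.

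Estimated counts were fitted over 18 libraries with edgeR 4.0.16 (R 4.3.3) by the quasi-likelihood test with TMM factors, after a filter by day (filterByExpr). The p-values were adjusted by Benjamini-Hochberg over the 10312 genes, with 0.05 as the threshold. The study used DESeq2, which was an alternative here (1.42.0). Log2 ratios of chain pairs were taken within libraries after adding 0.5 to each count, and 14 injured libraries were compared with 4 of day 0 by two-sided exact permutation tests. Besides the 10 members, the text names the genes of each further list with an adjusted p under 0.05 over any day, in that order and at most 6 a list, and the 3 genes nearest to each member, with exceptions said in place. Members, lists and tests were chosen with earlier results of these data known.

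Leaving aside libraries that also shared a number in the sample names, replicate numbers were shared by 31 pairs of different days. The residuals of these pairs correlated between -0.132 and 0.205 (median -0.006), and those of 95 other pairs between -0.287 and 0.226 (median 0.004). The 3 pairs with the same number in the sample names correlated between -0.007 and 0.055. No pairing was seen, and these values cannot exclude it. Alternatives were DESeq2, other size factors, no filter on low counts, a replicate block, only the days compared and leaving out each library. In a test on simulated data, 27% of 200 genes changed on day 7 were recovered (4% of those changed 2-fold and 50% of those changed 4-fold) over 9801 genes tested, and 3.57% of the 56 calls were false. The simulation gave every gene the same coefficient of variation between libraries (0.45) and changed only these 200 genes. In the data the spread differs by gene, and 19.8% of all genes were called on day 7. The share recovered therefore does not carry over to single members. Counting intervals and limits cover counting error only.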

Additional observations from a re-analysis of the deposited data

Results flagged for a closer look

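Of 42 groups of 4 libraries that were checked for a library far from the others, 5 were flagged, and chance flags about 1 in 20 groups. On day 0, Lamb2 was at 1343 CPM in replicate 1, above the other 3 libraries, Lamc1 was at 64.6 CPM in replicate 2, below them, and Nid2 was at 9.19 CPM in replicate 4, above them. On day 21, Lamb2 at 367 CPM and Lamc1 at 86.8 CPM were each the lowest value, both in replicate 2.

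For 7 differences between injured days, the test of the difference itself passed, so the change from day 0 was not the same on both days. Day 21 was above day 7 by log2 fold changes of 1.08 for Col4a1, 1.43 for Col4a2, 0.98 for Lama5 and 1.58 for Lamb2. Day 28 was above day 7 by 1.06 for Lama5 and 1.97 for Lamb2, and Lamb1 differed by -1.73 on day 28 against day 7.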

How the results depend on the processing

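On day 28 against day 0, 1 member was called by the fit reported, 2 by DESeq2, 2 with deposited factors (those behind the authors' normalised table), and 0 with the replicate block, with the block by the number in the sample names and with only the 2 days. On day 14 against day 7, 0 members became 1 under DESeq2, without the filter on low counts and with the replicate block. On day 21 against day 7, 4 members became 1 with the block by sample name number, and on day 28 against day 21, 0 became 2 under DESeq2, with the deposited factors and without the filter. That last block ties 3 day 0 to 3 day 21 libraries (residual correlations -0.007 to 0.055), so by construction other days are compared with day 0 mostly through 1 library. Of all genes tested, 138 were called on day 28 against day 0, 366 under DESeq2, 364 with deposited factors, 363 without the filter, 72 with the replicate block, 32 with only the 2 days and 3 with the block by sample name number. The replicate block changed calls of members against day 0 only for Lamb1 on day 28, Col4a2 on day 21 and Nid2 on days 7 and 14.

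Leaving out 1 library gave 3 to 4 members on day 7, 2 to 4 on day 14, 2 to 6 on day 21 and 0 to 2 on day 28 against day 0. It gave 0 to 2 for day 14 against 7, 2 to 4 for day 21 against 7 and for day 28 against 7, 0 for day 21 against 14 and for day 28 against 14, 0 to 1 for day 28 against 21, and 6 to 7 over any day.

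Signs turned only in values that were not called. Log2 fold changes were -0.00256 for Lamc1 on day 21 and -0.21 for Lama4 on day 28 with deposited factors, and with the block by sample name number 0.16 for Col4a2, -0.13 for Hspg2 and -0.12 for Lama4 on day 28. With a library left out, Hspg2 ranged from -0.64 to 0.0281 on day 7, -0.25 to 0.21 on day 14, -0.35 to 0.10 on day 21 and -0.10 to 0.35 on day 28, Lama5 from -0.24 to 0.13 on day 7, and Lamc1 from -0.0308 to 0.25 on day 14 and -0.18 to 0.12 on day 21.

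Against day 0, single days gave log2 ratios of Lama4 to Lama5 of -0.31, -1.05, -1.50 and -0.88, of Lamb1 to Lamb2 of 7.65, 5.29, 4.78 and 3.27, and of Nid1 to Nid2 of -1.46, -1.77, -2.35 and -1.24 on days 7, 14, 21 and 28. None passed after adjustment, and with 3 libraries against 4 the exact test cannot go under 0.0571. For Nid1 to Nid2 without a pseudocount the difference was -1.13 and the call was lost (exact permutation test, adjusted p = 0.244), with 2 day 0 libraries left because those without a Nid2 count drop out. Col4a1 to Col4a2 differed by -0.027 on day 21 and -0.12 on day 28. Leaving out a library gave -0.0281 to 0.13 for Col4a1 to Col4a2, -1.05 to -0.77 for Lama4 to Lama5 and -2.28 to -1.42 for Nid1 to Nid2. The cause of these changes was not tested, other than where the construction is named. Day 0 held at most 11 counts of Lamb1 and at most 7 of Nid2 per library.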
